A study of Rattus norvegicus with 15 samples.

Results

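The ethanol diet was compared with the control diet in regenerating rat liver, over the 131 miRNAs detected on 3 or more of the 8 arrays made after partial hepatectomy (PHx), the surgical removal of a large part of the liver. The array carries 350 miRNAs. A miRNA counted as detected on an array when at least a share of 0.5 of the spots of its probe was well above background. Liver from rats fed ethanol for a long period (EtOH) and from pair-fed carbohydrate controls (CHO) was taken 1, 6, 12 and 24 h after PHx. Each diet had 1 array at each time, loaded with RNA pooled from 4 animals. Every rat of both diets had undergone PHx, and no source used here gives strain, sex or age. The comparison is therefore of 4 EtOH pools with 4 CHO pools matched by time, which gives 4 differences, EtOH minus CHO, without replicates at a time. The 1 h and 6 h pools of a diet share 1 animal identifier, so they are not fully independent.

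MicroRNAs are short RNAs that pair with messenger RNAs mainly through their seed, bases 2 to 8 from the 5′ end, and lower the amount or translation of those messages. After PHx the remaining hepatocytes leave rest and divide until liver mass is restored, and long ethanol feeding is known to slow this response. Among miRNAs studied in this setting, those of the miR-17-92 polycistron favour cell cycle entry, miR-34a is a target of p53 that restrains it, and miR-21 rises in regenerating liver.

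Results below turn on a few seed families, whose mature sequences (RefSeq, assembly GRCr8) follow with the seed in capitals. Of the 131 miRNAs, 106 matched a mature sequence. The first set holds the miR-17-92 polycistron, with 4 of the 6 miRNAs that were called lower under EtOH, and relatives of it that were not called.
miR-20a: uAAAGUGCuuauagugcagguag
miR-17: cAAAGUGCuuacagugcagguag
miR-106b: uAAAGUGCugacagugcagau
miR-93: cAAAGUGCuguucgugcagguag
miR-19a: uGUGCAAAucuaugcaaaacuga
miR-19b: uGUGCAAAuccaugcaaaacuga
miR-92a: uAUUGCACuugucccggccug
miR-25: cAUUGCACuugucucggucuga

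The second set holds the miRNAs that were higher under EtOH, with the closest relative of each where one was measured.
miR-34a: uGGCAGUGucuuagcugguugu
miR-107: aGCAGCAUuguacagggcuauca
miR-103: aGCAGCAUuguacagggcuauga
miR-152: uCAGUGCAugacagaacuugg
miR-148b-3p: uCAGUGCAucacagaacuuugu
miR-185: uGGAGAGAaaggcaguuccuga

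The third set holds the remaining lower miRNAs, the miR-196 family and the miRNA that stood highest above the others at 12 h.
miR-450a: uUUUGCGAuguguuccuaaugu
miR-532-5p: cAUGCCUUgaguguaggacugu
miR-196a: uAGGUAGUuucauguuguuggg
miR-196b: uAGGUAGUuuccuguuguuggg
miR-196c: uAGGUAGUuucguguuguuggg
miR-125a-3p: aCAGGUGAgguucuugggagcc

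Within these sets miR-103 and miR-107 differ at 1 position of 23, miR-19a and miR-19b at 1 of 23, any pair of the miR-196 family at 1 of 22, and miR-17 and miR-20a at 2 of 23. How far the array probes tell such pairs apart was not tested, so these pairs are not independent measurements.

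The values are scaled signals. Each array was divided by the 75th percentile of the 185 probes that were detected throughout the 15 arrays of the series, which include 7 made before PHx (3 EtOH and 4 CHO pools). Signals under a floor of 9.61 were set to it. Differences are on the log2 scale, and each probe's level is compared with itself alone. The 75th percentile before scaling was 390.8, 339.9, 420.6 and 454.6 on the EtOH arrays at 1, 6, 12 and 24 h, and 459.8, 373.2, 420.0 and 343.9 on the CHO arrays. EtOH arrays each detected 123 or more of the miRNAs and CHO arrays 116 or more, with the lowest number on the CHO array at 24 h. The 1 h and 6 h arrays lie on 1 slide and the 12 h and 24 h arrays on the other, with both diets on each slide, so early against late and slide against slide cannot be told apart. The array before PHx from the EtOH 12 h pool had a median coefficient of variation between spots of 34.0%, against 7.77% to 9.09% on the others.

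The tissue label was checked against marker miRNAs. MiR-122, the defining hepatocyte miRNA, had the brightest probe on average, with scaled signals of 38057, 44009, 37699 and 35822 in EtOH at the 4 times and 34300.2, 37422, 39080 and 37040 in CHO. Of 10 neuron and muscle miRNAs, miR-124, miR-9, miR-1, miR-133a, miR-133b, miR-206, miR-208 and miR-7b were detected on 0 of the 8 arrays. MiR-128 was detected on 7 of them and miR-7a on 8. In whole liver, fewer cells of a type and less RNA per cell cannot be told apart.

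Markers of other cells differed in part between the diets. Summed scaled signals of the erythroid miR-451 and miR-144 ranged from 873 to 1210 in EtOH and from 361 to 849 in CHO, and those of 11 stellate and mesenchymal miRNAs from 1856 to 2103 in EtOH and from 2167 to 2384 in CHO. Neither pair of ranges overlapped under this scaling, and sums were not made under others. The erythroid sum is nearly all miR-451, since miR-144 was at or near the floor. A large part of the stellate sum is miR-125b-5p, at 591 to 711 in EtOH and 751 to 858 in CHO. The stellate miR-199a-3p, miR-199a-5p, miR-214 and miR-145 differed little, with mean differences of 0.10, -0.04, -0.07 and -0.02. The gap in the sums is therefore not shared by all markers of the list. When all probes set the percentile, 10 of the 11 stellate miRNAs had a mean difference above 0, where 10 lay below 0 here. Among the 134 single miRNAs tested, all EtOH arrays lay above all CHO arrays for 5.97% and below them for 8.96%. The 5 leukocyte miRNAs (343 to 377 in EtOH, 324 to 454 in CHO), the 4 endothelial miRNAs (1119 to 1337 and 1275 to 1400) and the 6 epithelial miRNAs (381 to 459 and 363 to 399) overlapped between the diets. These sums hold the markers detected on 3 or more of the 8 arrays, which were 2 of 2 erythroid, 11 of 12 stellate, 5 of 8 leukocyte, 4 of 5 endothelial and 6 of 11 epithelial miRNAs on the array. Detected on 0 of the 8 were miR-132 of the stellate list, miR-142-5p and miR-342-5p of leukocytes, miR-222 of endothelium, and miR-200c, miR-141, miR-205, miR-182 and miR-183 of epithelium. The part of other cells in the results below was not tested.

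The first comparison asks whether the diets differed while the liver regenerated, with the 4 differences averaged. In EtOH livers miR-34a, miR-107, miR-152 and miR-185 were higher, and miR-450a, miR-532-5p, miR-92a, miR-20a, miR-19a and miR-19b had lower levels. The test was limma's moderated test on 15 arrays, modelling the diet effect before and after surgery and every time point. Benjamini-Hochberg adjustment ran over 134 tested miRNAs (the 131 and 3 others). The fit had no term for the animals, so it treated arrays that share animals as independent. The share called at an adjusted p under 0.05 was 7.46%, or 10 of 134, with 2.99% higher and 4.48% lower. All 10 are among the 131, and 41 miRNAs (30.6%) had an unadjusted p under 0.05. Each of the 10 had 1 sign at 4 of 4 times. Of the 134, 12.7% were higher and 27.6% lower in EtOH at all 4 times. All 4 EtOH arrays lay above all 4 CHO arrays for 5.97% and below them for 8.96%.

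The split of calls depends on the scaling. Quantile normalization gave 5 higher and 1 lower, the authors' deposited values 6 and 1, and the 75th percentile over all probes 6 and 0; the last moved the median difference of all tested miRNAs up by 0.24. MiR-107 and miR-152 were called under each of these 3, miR-20a under the first and second, and miR-34a under the third. With background removed by normexp and 1 background value per array, no miRNA was called (17 at an unadjusted p under 0.05). The 8 arrays after PHx fitted alone, with 3 residual degrees of freedom, gave 30 calls (22.4%), 9 higher (6.72%) and 21 lower (15.7%), and these include all 10. The count fell to 1, miR-20a, when any 1 h or 6 h array was left out, was 2 without the first or second CHO pool before PHx, and was 33 without the third EtOH pool before PHx. Over the 15 fits with 1 array left out the call held in 15 for miR-20a, 11 for miR-152, 9 for miR-19a and miR-19b, 7 for miR-107 and miR-92a, 6 for miR-34a, 5 for miR-185 and miR-450a and 2 for miR-532-5p. With the set of pools as a replicate block 9 were called, and miR-34a (adjusted p 0.0589), miR-107, miR-450a and miR-532-5p (0.0554 each) were lost. An exact sign-flip test over 4 pairs cannot give a two-sided p under 0.125, so no such test was used.

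**Figure D1:**
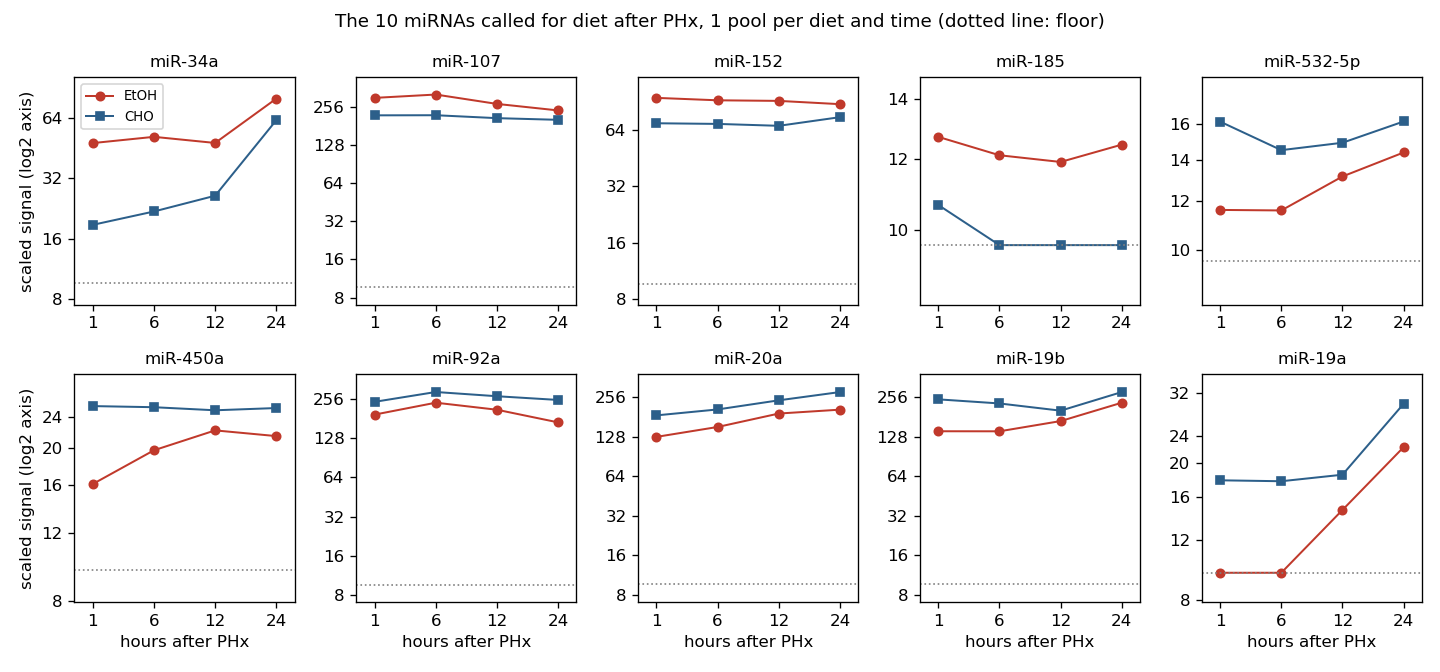
Scaled signal of the 10 called miRNAs on a log2 axis by hours after PHx, 1 pool per point, for EtOH (red circles) and CHO (blue squares), with the floor of 9.61 as a dotted line. The red and blue lines keep 1 order in every panel, and the gap of miR-34a narrows from 1.35 at 1 h to 0.36 at 24 h on the log2 scale.

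Of the higher miRNAs, miR-34a, the p53 target, differed most. Its scaled signal was 48.0, 51.6, 48.1 and 80.0 in EtOH at 1, 6, 12 and 24 h and 18.8, 21.9, 26.3 and 62.4 in CHO. EtOH was level over the first 3 times and high at 24 h, while CHO was low early and came near EtOH at 24 h, so the groups overlap across times. The differences were 1.35, 1.23, 0.87 and 0.36, with a mean of 0.95 (SE 0.248, adjusted p 0.0416), and were 1.29 within the early slide and 0.62 within the late slide. The smaller late difference was itself not called (late minus early -0.68, adjusted p 0.891). Before PHx the sets of animals later sampled at 1, 6 and 12 h had differences of 1.35, 0.80 and -0.44. The negative value includes the EtOH array with the wide spot spread. The call was lost with quantile normalization (adjusted p 0.0684), the authors' values (0.0540) and the slide as a block (0.0509), and the range over all settings other than left-out arrays was 0.00179 to 1.29 for the mean difference.

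MiR-107 and miR-103 share their seed and sit in introns of pantothenate kinase genes. MiR-107 read 301, 320, 270 and 239 in EtOH and 219, 219, 208 and 202 in CHO, in time order. Every EtOH array lay above every CHO array, and the gap was widest at 6 h. The mean difference was 0.40 (SE 0.0980, adjusted p 0.0318), 0.50 early and 0.31 late. MiR-103 read 163, 174, 166 and 150 in EtOH and 123, 132, 136 and 136 in CHO. It also did not overlap between the diets, but at a mean difference of 0.31 it missed the threshold (adjusted p 0.0845) and passed with the 8 arrays alone (adjusted p 0.0334).

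MiR-152 and miR-148b-3p share a seed, and this family and miR-185 are known to target the DNA methyltransferase Dnmt1. MiR-152 read 95.0, 92.2, 91.6 and 88.0 in EtOH and 69.5, 69.0, 67.4 and 74.97 in CHO. The EtOH pools lay close together and all above the CHO pools, with the smallest gap at 24 h. The mean difference was 0.39 (SE 0.0701, adjusted p 0.0117), 0.43 early and 0.34 late, and it had been 0.36 before PHx. MiR-148b-3p read 40.8, 46.5, 43.4 and 35.7 in EtOH and 33.4, 37.9, 34.5 and 31.8 in CHO, a mean difference of 0.27 that was not called (adjusted p 0.152). MiR-185 was near the limit of the array, at 12.7, 12.1, 11.9 and 12.4 in EtOH, where it was detected on 4 of 4 arrays. In CHO it was detected on 0 of 4, at 10.66 at 1 h and at the floor at the other times. EtOH exceeded CHO by at least 1.16-fold, a bound taken against the highest of the floor, its own signal and the lowest signal of detected probes. The mean difference with floored values was 0.32 (adjusted p 0.0318 by limma). The CHO arrays before PHx read the floor or 9.81, so CHO added little spread and this p may be too small. The call was lost under all 3 other scalings (adjusted p 0.0565 to 0.0914).

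The lower miRNAs were led by the miR-17-92 polycistron, transcribed as 1 precursor and known to favour proliferation. On GRCr8 its 5 measured members lie at chr15:98587861-98588622 on the plus strand. MiR-17, miR-19b and miR-92a also have a copy at chrX:137342945-137343637 on the minus strand, which the array cannot tell from the first. Also listed with the polycistron and its paralogs, miR-18a, miR-20b-5p and miR-363 were on the array and detected on 0 of the 8 arrays. MiR-20a read 128.1, 152.4, 193 and 206 in EtOH and 187, 207, 243 and 281 in CHO. Both diets were higher at later times, and EtOH was below CHO at each of them by a similar step. The differences were -0.54, -0.44, -0.33 and -0.45, with a mean of -0.44 (SE 0.0582, adjusted p 0.00129), -0.49 early and -0.39 late. With the 75th percentile over all probes the mean was -0.19 and not called (adjusted p 0.252). Before PHx the difference of miR-20a was already -0.63 (adjusted p 8.57e-05 by limma).

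MiR-19b, which shares its seed with miR-19a, read 141, 141, 169 and 233 in EtOH and 247, 230, 203 and 281 in CHO. The gap was wide at 1 and 6 h and narrow at 12 and 24 h, with a mean of -0.51 (SE 0.124, adjusted p 0.0318), -0.76 early and -0.27 late. MiR-19a was at the floor and not detected in EtOH at 1 and 6 h, and read 14.6 and 22.3 at 12 and 24 h. In CHO it read 17.9, 17.8, 18.5 and 29.8. CHO was at least 1.86-fold higher at 1 h and at least 1.59-fold at 6 h, and the mean difference, with EtOH at the floor there, was -0.63 (SE 0.149, adjusted p 0.0318), -0.89 early and -0.38 late. The calls of miR-19a and miR-19b were lost with quantile normalization (adjusted p 0.0966 and 0.127), the authors' values (0.157 and 0.0799) and the 75th percentile over all probes (0.109 and 0.288). Before PHx their differences were already -0.57 and -0.69.

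MiR-92a read 194, 240, 211 and 169 in EtOH and 243, 289, 269 and 251 in CHO. Here every EtOH array lay below every CHO array, and the gap was widest at 24 h. Its mean difference was -0.38 (SE 0.0870, adjusted p 0.0318), -0.30 early and -0.46 late, and it was not called under the 3 other scalings (adjusted p 0.0684 to 0.416). MiR-17, the remaining measured member of the polycistron, read 47.9, 62.8, 79.1 and 79.9 in EtOH and 54.7, 73.0, 89.8 and 103 in CHO. It was below CHO at every time with a mean of -0.24, just short of the threshold (adjusted p 0.0598).

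The paralogous cluster of miR-106b, miR-93 and miR-25, in an intron of Mcm7, did not have a call. It shares the seeds of miR-17, miR-20a and miR-92a but not that of miR-19a and miR-19b. MiR-106b had a mean difference of -0.16 (adjusted p 0.152) and miR-93 of -0.06 (adjusted p 0.705). MiR-25, with the seed of miR-92a, read 150, 183, 155 and 151 in EtOH and 130, 137, 149 and 173 in CHO. It lay above CHO at 1, 6 and 12 h and below it at 24 h (mean 0.12, adjusted p 0.503). Over the 8 measured members of both clusters 4 were called lower and none higher, against 4.48% called lower of all tested miRNAs. Their median mean difference was -0.31, with 7 of 8 below 0, where that of all 131 was -0.05 with 80 below 0. When all probes set the percentile, 4 of the 8 lay above 0 and 4 below, with a median of -0.06. This list was chosen with earlier results of these data known, so its calls are not a test of the clusters. The miRNAs of the polycistron share a precursor and some differ at few positions, so the calls are not independent.

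The other 2 lower calls were miRNAs of X-linked clusters. MiR-450a lies with miR-322 at chrX:137720985-137726219 on the minus strand, and miR-532 with miR-188 at chrX:17919195-17919615 on the plus strand. MiR-450a read 16.1, 19.7, 22.2 and 21.4 in EtOH and was nearly level in CHO, at 25.6, 25.5, 25.01 and 25.4. Every EtOH array was below every CHO array, with the lowest at 1 h, and the mean difference was -0.36 (SE 0.0956, adjusted p 0.0416), -0.52 early and -0.21 late. MiR-532-5p read 11.6, 11.6, 13.2 and 14.4 in EtOH and 16.2, 14.5, 14.9 and 16.2 in CHO. It too did not overlap, with a mean of -0.29 (SE 0.0781, adjusted p 0.0464), -0.40 early and -0.17 late. Neither was called under the 3 other scalings, where the mean was -0.16, -0.11 and -0.07 for miR-450a and -0.05, -0.04 and -0.05 for miR-532-5p. Of the 6 measured miRNAs of these clusters 2 were called lower, and the median was -0.33, with 6 of 6 below 0, where that of miR-188 (-0.67) includes the CHO 12 h array described below and was 0.13 within the early slide. With the 75th percentile over all probes the median of the 6 was -0.08, with 2 above 0. This list too was chosen with earlier results known, so its calls are not a test of the clusters. MiR-500 (-0.40, adjusted p 0.0529) and miR-322 (-0.24, adjusted p 0.0799) were not called.

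**Figure D2:**
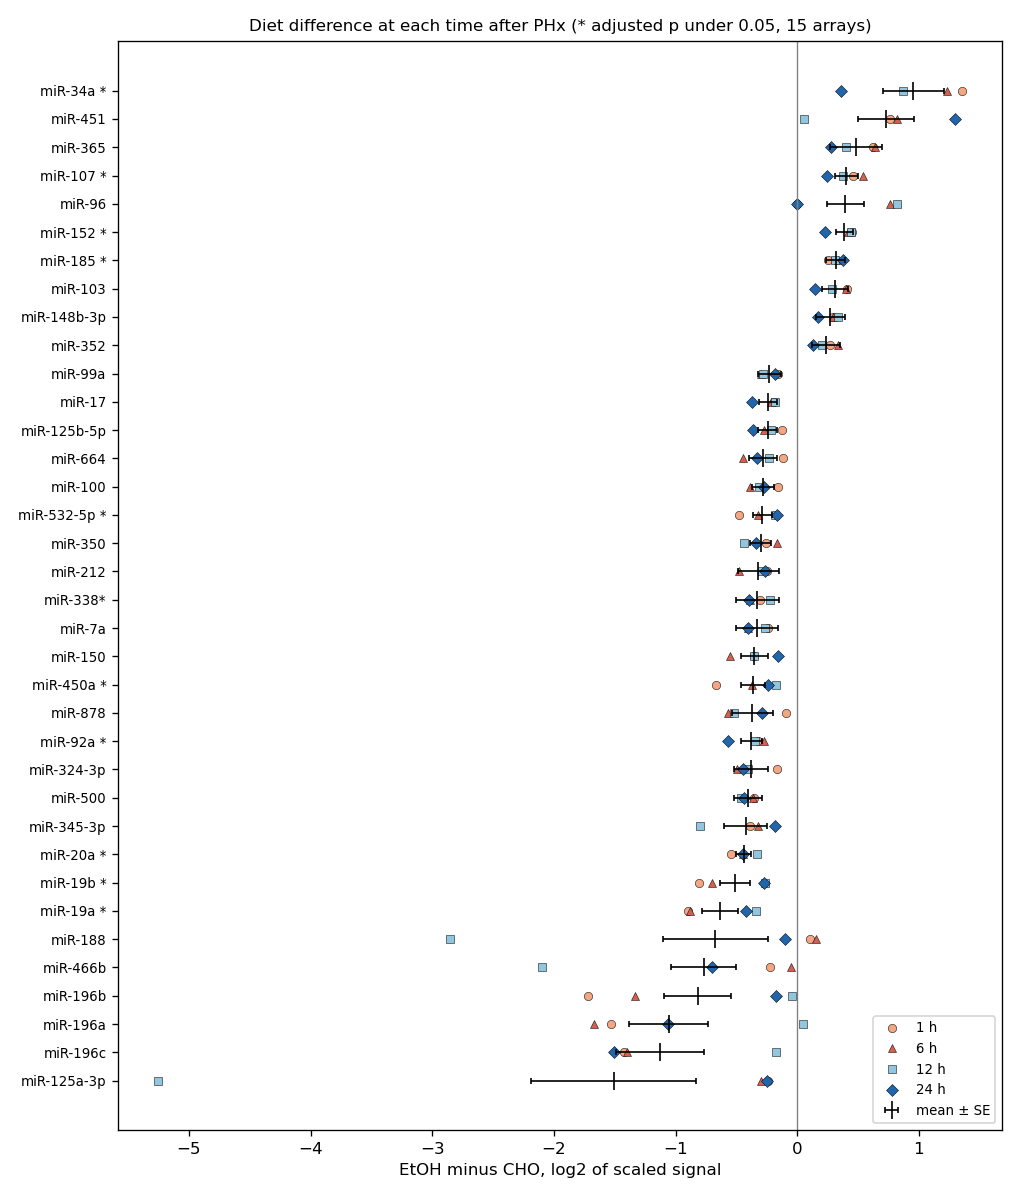
EtOH minus CHO on the log2 scale for the 8 largest mean differences in each direction and every other member called with the 8 arrays alone, with 1 symbol per time and the mean ± SE of the fit on 15 arrays as a black bar. Asterisks mark the 10 calls; miR-125a-3p, miR-188 and miR-466b each hold 1 point, at 12 h, far to the left of their other times.

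Some of the largest mean differences were not called. MiR-451, a red cell miRNA made in erythroid precursors, read 1197, 914, 873 and 863 in EtOH and 707, 519, 840 and 352 in CHO. All EtOH arrays lay above all CHO arrays, by little at 12 h and most at 24 h, and the mean was 0.73 (SE 0.229, adjusted p 0.0631; 0.0182 with the 75th percentile over all probes). Before PHx it was -0.17. MiR-144, encoded beside it at chr10:63459446-63459606, was at or near the floor in both diets, with detection on 3 EtOH and 0 CHO arrays and a mean of 0.16 (adjusted p 0.563).

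MiR-365, from the hepatocyte list, read 415, 460, 396 and 372 in EtOH and 270, 295, 300.3 and 308 in CHO. No EtOH array was as low as any CHO array, and the mean was 0.48 (SE 0.213, adjusted p 0.152; 0.0286 with the 8 arrays alone). Before PHx the sets sampled at 1, 6 and 12 h had differences of 0.50, 0.64 and -0.90, and the last includes the array with the wide spot spread. MiR-96, an epithelial miRNA of the miR-183 cluster, was detected on 4 of 4 EtOH and 0 of 4 CHO arrays. Its EtOH signals were 16.3 and 17.0 at 6 and 12 h and at the floor at 1 and 24 h, at least 1.23-fold higher than CHO on average. The mean difference with floored values was 0.40 (adjusted p 0.121 by limma).

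The miR-196 family, encoded within the Hox clusters, gave the largest differences that recurred over times, for miR-196b at 1 and 6 h only. MiR-196c read 25.6, 33.8 and 22.0 in EtOH at 1, 6 and 12 h and was at the floor at 24 h, against 68.9, 89.5, 24.8 and 27.3 in CHO. MiR-196a read 17.2, 19.99 and 18.04 and was at the floor at 24 h, against 49.6, 63.8, 17.5 and 20.1. MiR-196b was detected on 1 EtOH array (13.8 at 6 h) and, in CHO, at 1 and 6 h (31.7 and 34.9). For all 3, CHO at 1 and 6 h stood above the other arrays after PHx, and the diets differed by -0.18 to 0.05 at 12 h. Mean differences were -1.13, -1.06 and -0.82, with adjusted p of 0.0646, 0.0631 and 0.0792. They were -1.42, -1.60 and -1.53 early and -0.84, -0.51 and -0.11 late. Before PHx the sets sampled at 1, 6 and 12 h already had miR-196c differences of -0.82, -0.98 and 0.71. Those of miR-196a were -0.54, -1.02 and 0.37, and those of miR-196b -0.60, -0.82 and 0.29. The positive values include the EtOH array with the wide spot spread. The sequences above differ at 1 position, so these are not 3 independent results, and the CHO 1 h and 6 h pools share an animal.

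For single times each of the 10 combinations of diet and time had its own term, and a lone pool took its spread from the arrays before surgery (median SE 0.20). Calls at a single time therefore set 1 array against 1 array and do not show a difference between the diets. At 1 h 1 miRNA was called (0.746%), miR-20a at -0.54 with an adjusted p of 0.0450 (14 miRNAs, 10.4%, had an unadjusted p under 0.05), and it was lost under each of 9 other settings tried, and without the second EtOH or any of the 4 CHO pools before PHx (adjusted p 0.0511 to 0.206). At 6 h limma called none, and an unadjusted p under 0.05 was reached by 18 (13.4%). MiR-20a (-0.44, adjusted p 0.142) and miR-10a-5p (-0.41, adjusted p 0.164) were among those of lowest p. MiR-30c-1* (-0.33) was too, but all 7 of its arrays before PHx were at the floor, so its p is not given. At 24 h none was called either, with 7 (5.22%) at an unadjusted p under 0.05, led by miR-20a (-0.45, adjusted p 0.139), miR-92a (-0.57) and miR-93 (-0.43), the latter both at 0.749.

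At 12 h 5 miRNAs were called (3.73%; 11.2% at an unadjusted p under 0.05), all with the higher signal on the CHO 12 h array. MiR-125a-3p, the less abundant strand of the miR-125a hairpin, read 492 there and between 11.3 and 17.5 on the other 7 arrays after PHx. Its EtOH 12 h signal was 12.9, a difference of -5.25 (adjusted p 0.00138), and its 4 probes gave -4.85 to -5.34. MiR-188 read 166 on that array against 23.1 in EtOH (-2.85, adjusted p 0.0421), and lay between 19.1 and 32.2 on the other 7. MiR-466b read 87.5 against 20.4 (-2.10, adjusted p 0.00794), where the other 7 lay between 16.3 and 30.8. MiR-672 read 34.0 against the floor, at least 3.54-fold higher, and miR-30c-1* read 17.9 against the floor, on 1 of its 4 probes. For both of these the 7 arrays made before PHx all sat at the floor, with no spread to draw on, so their p may be too small and is not given. MiR-466b lost its call with the authors' values, with both kinds of normexp and within the late slide. MiR-125a-3p lost its call with normexp and local background and within the late slide. The call of miR-188 was lost with the authors' values (adjusted p 0.0593), the slide as a block (0.0871), the replicate block (0.214) and normexp with local background (0.997), and without the first or second EtOH or any of the 4 CHO pools before PHx (0.0624 to 0.109). Within the late slide alone no miRNA was called at 12 h by limma (8 at an unadjusted p under 0.05), and with the authors' values 2 were.

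Between the times the differences were most alike at 1 and 6 h. Across the 131 miRNAs they had Pearson's r of 0.883 and Spearman's rho of 0.8291 for 1 against 6 h, and 0.245 and 0.534 for 12 against 24 h. The other pairs of times had r between 0.198 and 0.609. These describe miRNAs, which are not replicates, and the 1 and 6 h pools share a slide and 1 animal per diet. The spread of differences was 0.371, 0.383, 0.633 and 0.272 (SD over miRNAs) at 1, 6, 12 and 24 h, while the median size was 0.174, 0.219, 0.165 and 0.135. The wide SD at 12 h and the ordinary median size there go with the few miRNAs raised on the CHO 12 h array.

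**Figure D3:**
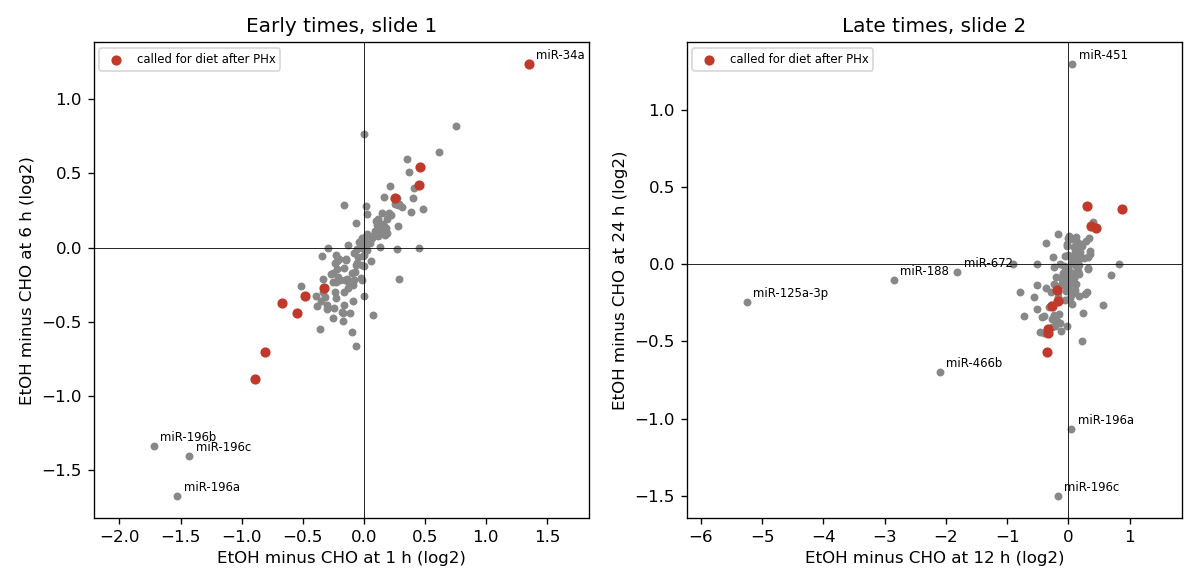
EtOH minus CHO (log2) of each of the 131 miRNAs at 6 h against 1 h (left) and at 24 h against 12 h (right), with called miRNAs in red and those beyond 1 in either direction named. The left cloud follows a line (r 0.883), while on the right miR-125a-3p, miR-188, miR-466b and miR-672 lie far left at 12 h.

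Whether the diet difference changed from early (1 and 6 h) to late (12 and 24 h) was tested directly. MiR-672 alone passed (0.746%; 12.7% at an unadjusted p under 0.05), at -1.002. It rests on the CHO 12 h array, with all 7 arrays before PHx at the floor, so its p is not given. It did not pass with the 8 arrays alone (adjusted p 0.444), the authors' values (0.380), either kind of normexp (0.0964 and 0.475) or the replicate block (0.0978). MiR-20a (0.10, adjusted p 0.831), miR-19b and miR-34a were not. Of the 10 called for diet, 8 (80%) had a smaller mean difference late than early, against 79 of 131 (60.3%) in all.

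Whether the diet difference after PHx departed from that before PHx was tested in the same fit. That fit has no term for the animals, so it treated arrays from the same animals before and after PHx as independent. The replicate block followed the time label, which both diets share, so no setting made a fully paired test. No miRNA was called by limma, under the main or any other setting, and 9 (6.72%) had an unadjusted p under 0.05. The lowest p belonged to miR-200b (0.60), an epithelial miRNA, miR-199a-3p (0.57), a mesenchymal one, and miR-320 (-0.56), each with an adjusted p of 0.587. A p that misses the threshold does not show that the differences were equal. Of the 10 called after PHx, 7 were also called before it (15.7% of all), and 10 of 10 had the same sign before, against 97 of 131 (74.0%) in all. In 7 of the 8 pools the arrays before and after PHx come from the same animals, so these are not separate evidence.

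Of 9 measured miRNAs of a list known from regeneration, miR-34a, described above, was called for diet and the other 8 were not. MiR-21 read 2818, 3062, 4046 and 5071 in EtOH and 2909, 3198, 3730 and 4484 in CHO. It was higher at later times in both diets, and the diets lay close at each time (mean 0.05, SE 0.103, adjusted p 0.785). MiR-221, which represses cell cycle inhibitors, had a mean of -0.08 (adjusted p 0.557), with the opposite sign under 4 other settings (up to 0.17). MiR-378 read 489, 485, 495 and 430 in EtOH and 393, 401, 421 and 535 in CHO. It lay above CHO up to 12 h and below at 24 h (mean 0.13, adjusted p 0.503).

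Of 11 hepatocyte miRNAs none was called, and 2 were called higher with the 8 arrays alone. Their median was 0.08, with 9 of 11 above 0, from -0.17 (miR-101a) to 0.48 (miR-365). When all probes set the percentile, the median was 0.33, with 11 of 11 above 0, where all tested miRNAs moved up by 0.24. MiR-122 had a mean of 0.07 (SE 0.0858, adjusted p 0.663). The 10 miRNAs with the brightest probes, miR-122, let-7f, miR-21, let-7a, miR-26a, miR-29a, let-7c, miR-192, miR-22 and miR-126, had no call, with mean differences from -0.15 (miR-26a) to 0.10 (miR-22).

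Lists of other cell types had no call either. Of 11 stellate and mesenchymal miRNAs 10 lay below 0, with a median of -0.14, led by miR-100 (-0.28, adjusted p 0.0631) and miR-125b-5p (-0.24, adjusted p 0.0656). When all probes set the percentile, 10 of the 11 lay above 0. The 5 leukocyte miRNAs had a median of -0.07, with miR-150 of lymphocytes at -0.35 (adjusted p 0.0631), and 4 of the 5 lay above 0 under each of the 3 other scalings. The 6 epithelial miRNAs had a median of 0.12 (0.18 to 0.37 under the 3 other scalings) and the 4 endothelial ones of -0.12, and the latter turned to 0.13 with the 75th percentile over all probes. Among lists of miRNA families the 8 let-7 members had a median of -0.01 (0.24 with the 75th percentile over all probes). The 4 of the miR-29 list, which holds miR-29c* with another seed, had -0.06 (0.05 to 0.17 under the 3 other scalings). The 5 miR-30 members had 0.09 (0.34 with the 75th percentile over all probes).

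**Figure D4:**
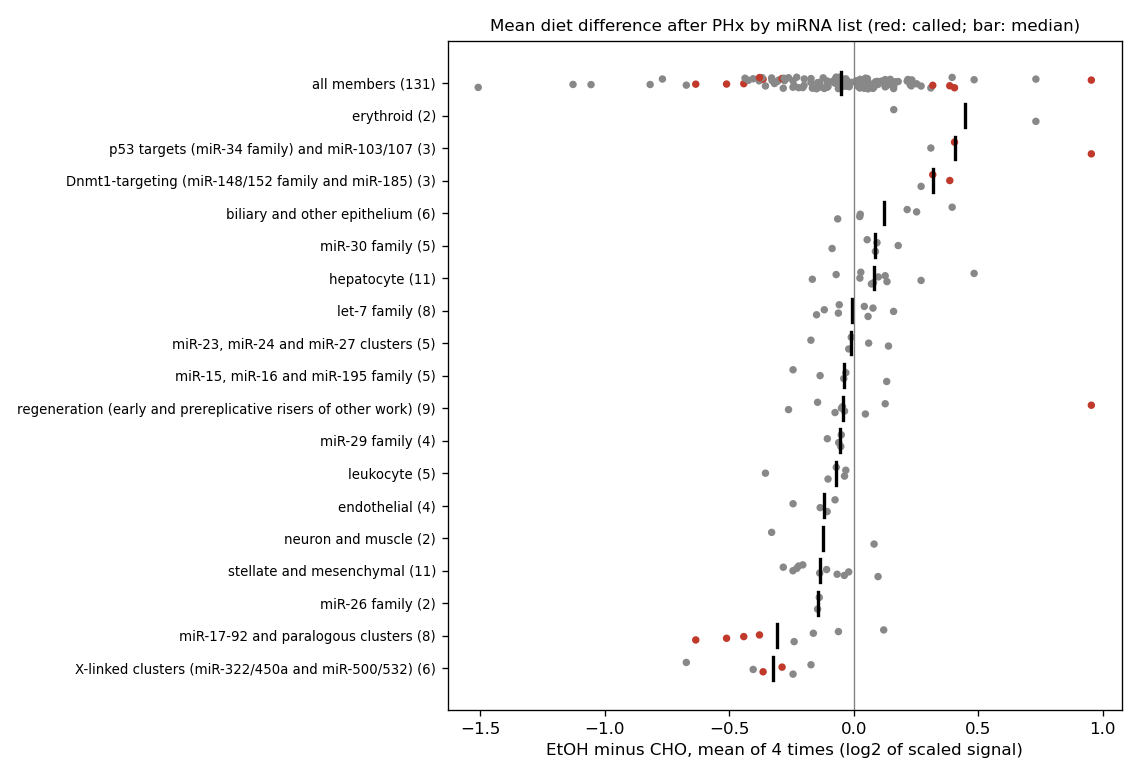
Mean EtOH minus CHO difference over the 4 times (log2), 1 point per miRNA, by list with its number of members, with the list's median as a black bar and called miRNAs in red. Calls lie in the miR-17-92, X-linked, Dnmt1 and p53 lists (miR-34a also in the regeneration list), while lists of cell types hold none.

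Members at the edge of the detection rule were miR-144, miR-196b, miR-331, miR-429 and miR-7a*, detected on 3 of the 8 arrays. Just outside it, on 2 arrays, were miR-139-5p, miR-146b, miR-210, miR-327 and miR-335. A further 207 miRNAs of the array were detected on none of the 8. Of the 131, 111 were detected on all 8 arrays. Restricting the test to these also gave 10 calls, 8 of them shared with the 10 above. MiR-185 and miR-19a were not tested there, since they were not detected on all 8.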

How the data were processed

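Per the file headers, the deposited scanner files hold spot intensity from single-colour Agilent arrays, background-subtracted by Feature Extraction 10.5.1.1 (the submitters' processing notes name 10.7.3.1). The authors also deposited a table of log2 values per miRNA, and no source used here gives its scale, centring or method. The medians of its columns run from 0.106 to 1.10, and its 13 highest ranks hold identical values in every column. It served as an alternative.

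Control spots and spots flagged as outliers (2.38%) were left out, and spots were averaged per probe. Signals were scaled to the 75th percentile over 185 probes detected on all arrays, floored at 9.61 (3.26 as log2) and logged. The probe of highest mean stood for its miRNA. Other probes gave the same sign for 105 of 108 miRNAs. MiRNAs detected on at least 3 of 15 arrays (134) entered the fits, made with R 4.3.3 and limma 3.58.1. The main fit has 8 residual degrees of freedom and the fit with a term for each diet and time has 5; the 3 from the times after PHx hold pool spread and change of the diet difference together. P-values rest on differences between pools, and the number of arrays limits the precision. The fits were tested on simulated data with independent noise on each array, which does not cover arrays that share animals.

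Alternatives were quantile normalization, the percentile over all probes, the authors' values, normexp (on the median spot signal), fewer miRNAs, fewer arrays, slide and pool-set blocks. The members and lists were chosen with earlier results of these data known. MiRNAs were named if called for diet after PHx, among the 8 largest mean differences per direction, called at single times or in contrasts of differences (up to 5 per direction, or the 3 of lowest p), among the 10 of brightest probe, in a list, or at the edge of the detection rule. Names are those of the array design.

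For pairing, same-numbered sets come from the same animals before and after PHx, per the labels' animal identifiers, but not across diets, where arrays share only the time label; the labels do not say whether EtOH and CHO pools of a set were fed as pairs.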

Additional observations from a re-analysis of the deposited data

Results flagged for a closer look

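Differences at 1 time that stood apart from the other 3 times were found for 5 of the named miRNAs by a gap test. They were miR-125a-3p at 12 h (-5.25), miR-188 at 12 h (-2.85), miR-196c at 12 h (-0.18, where its other times lay near -1.4), miR-152 at 24 h (0.23) and miR-378 at 24 h (-0.32). The gap test flags about 1 in 20 such groups by chance when the groups are not chosen by their values. Many of the named miRNAs were chosen by their values, and miR-125a-3p and miR-188 were called at 12 h itself. The rate of 1 in 20 therefore cannot be applied to these 5, and the share flagged among all 131 was not tested. The diet difference of miR-672 passed the test of late minus early times (-1.002), but this rests on the CHO array at 12 h, with no spread on the arrays before PHx, and was lost with the 8 arrays alone, the authors' values, both kinds of normexp and the replicate block.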

How the results depend on the processing

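Counts of called miRNAs moved with the processing, and the cause was not tested unless a setting has fewer arrays or miRNAs by construction. For diet after PHx (10 called) there were 30 with the 8 arrays alone, 6 with quantile normalization, 6 scaled to the percentile over all probes, 0 with normexp and local background (whose fit failed on 2 arrays), 0 with normexp and 1 background value (chosen after seeing the data), 26 within slide 1 and 0 within slide 2, and 1 to 33 with an array left out. At 1 h (1 called) it was 0 with quantile normalization, the percentile over all probes, the authors' values, both kinds of normexp, detection on all 8 arrays, the slide block and the replicate block, 3 within slide 1, and 0 to 2 with an array left out. At 6 h (0 called) it was 2 with quantile normalization and 2 within slide 1, and 0 with any array left out. At 12 h (5 called) it was 12 with quantile normalization, 2 with the authors' values, 0 and 2 with the 2 kinds of normexp, 3 with detection on all 8 arrays, 0 within slide 2, and 4 to 6 with an array left out. At 24 h (0 called) it was 111 with normexp and local background, where the fit failed on the CHO array. Late minus early (1 called) gave 0 with the 8 arrays alone, the authors' values, normexp with local background and the replicate block, 2 with the percentile over all probes, and 1 to 2 with an array left out. The replicate block (set of pools by time label) gave 9 for diet after PHx, 6 of them shared with the 10, and 4 at 12 h. After minus before gave 0 throughout.

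Signs of the 10 called miRNAs held under every setting except normexp with local background, where miR-152 was -0.13 and miR-185 was -0.48, as were miR-103 (-0.018) and miR-96 (-0.41) among those not called. Uncalled means also turned for miR-122 (-0.0501) and miR-378 (-0.0421) within slide 2, for miR-188 within slide 1 (0.13) and without either 12 h array (0.0535; the range with an array left out was -0.95 to 0.0535), for miR-21 with the authors' values (-0.14) and within slide 1 (-0.0542), and for miR-221 with quantile normalization (0.0827), the percentile over all probes (0.17), the authors' values (0.0051) and normexp with 1 background value (0.0047). MiR-20a was called in all 15 fits with an array left out. Low signal limits miR-185, miR-19a, miR-96, miR-672 and miR-30c-1*, which lie at the floor on some arrays.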
